A study of Homo sapiens with 3 samples.

Results

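The prostaglandin synthases and receptors of LX-2 cells were described as 10 genes chosen by symbol: PTGS1, PTGS2, PTGES, PTGES2, PTGES3, PTGIS, PTGER2, PTGER4, PLA2G4A and HPGD. Values were read for 8 of them, out of 24254 gene symbols in the whole table, and PLA2G4A and HPGD were not analysed here. LX-2 is an immortalised line of human hepatic stellate cells, the fibrogenic cells of the liver, and rhFGF19 is recombinant human fibroblast growth factor 19, an enteric hormone. The poly(A) RNA of 1 vehicle-treated culture, 1 culture given 50 ng/mL rhFGF19 and 1 culture given 100 ng/mL rhFGF19 was sequenced, to ask how FGF19 alters hepatic stellate cells. The doses follow the titles of the samples, whereas the sample descriptions exchange them. The time of stimulation was 24 h in the description of the series, and 72 h and 73 h in those of the libraries. With 1 library per condition there was no replicate, so no comparison below carries an error or a p-value, and a difference between 2 libraries cannot be told apart from the variation between cultures or preparations.

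Prostaglandins are short-range lipid signals made from arachidonic acid. A cytosolic phospholipase A2, PLA2G4A, releases the acid from membranes, and the cyclooxygenases PTGS1 and PTGS2 turn it into prostaglandin H2. Terminal synthases then make prostaglandin E2 (PTGES, the inducible microsomal enzyme, and PTGES2 and PTGES3) or prostacyclin (PTGIS). Prostaglandin E2 acts on receptors such as EP2 (PTGER2) and EP4 (PTGER4), which raise cAMP, and HPGD breaks it down. In stellate cells prostaglandin E2 is known as a brake on proliferation that acts through cAMP, and PTGS2 is an inflammatory gene in many tissues.

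The level of each gene was given as FPKM, a count of fragments corrected for transcript length and for library size. This allows levels of different genes to be set side by side within a library, though without a correction for base composition. The table held no read counts, so depth was unknown and no counting interval could be given. Fold changes were taken as differences of log2(FPKM + 0.1), in which changes of low genes appear too small, and only for the 12422 symbols whose mean over the 3 libraries reached 0.5 FPKM. Over all symbols the values summed to between 276690 and 302243 per library. A value of at least 1 FPKM was listed for 8891 symbols in vehicle, 10929 with 50 ng/mL and 10905 with 100 ng/mL. Symbols with GC-rich transcripts had the lower fold changes against vehicle (Spearman correlation -0.77 at both doses across 12397 symbols, which share 1 vehicle library). Of 10 stellate cell markers, 6 had at least 1 FPKM in every library, whereas COL1A2, DES, LRAT and GFAP stayed under 0.2 FPKM in all 3. The summed level of the listed hepatocyte and epithelial markers was 2.34 to 2.96 FPKM, and that of the endothelial markers 0.48 to 0.50 FPKM. Of the blood cell markers, values were read for CD68 and CD14, which summed to 42.4 to 51.8 FPKM.

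Sequences of the most abundant members are shown first because the fold changes of all symbols against vehicle correlated with transcript GC content. The first 90 coding bases of PTGES2 and PTGES3, from the principal transcripts of GENCODE v29, are given 5′ to 3′ with G and C in capitals.
PTGES2: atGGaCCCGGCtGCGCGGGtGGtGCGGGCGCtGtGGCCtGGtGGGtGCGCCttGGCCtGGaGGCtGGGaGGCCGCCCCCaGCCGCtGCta
PTGES3: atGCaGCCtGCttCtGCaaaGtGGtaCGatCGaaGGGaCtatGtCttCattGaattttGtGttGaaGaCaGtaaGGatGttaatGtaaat
In these stretches G and C made up 76.7% of PTGES2 and 38.9% of PTGES3. Over the whole coding sequences they made up 65.3% of the 1134 bases of PTGES2 and 36.6% of the 483 bases of PTGES3, so both prostaglandin E synthases lie far apart in composition.

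The sequence before the start of the gene is shown for the same synthases and for PTGS2, the inducible cyclooxygenase. The bases come from RefSeq promoters (GRCh38.p14), cut where the annotated gene begins, and all 3 genes are read from the minus strand. They cover chr9:128128463-128128690 for PTGES2, chr12:56688409-56688534 for PTGES3 and chr1:186680428-186680673 for PTGS2. Capitals mark the GC box GGGCGG, the TATA box TATAAA and the core of the cAMP response element, TGACG, on either strand.
PTGES2: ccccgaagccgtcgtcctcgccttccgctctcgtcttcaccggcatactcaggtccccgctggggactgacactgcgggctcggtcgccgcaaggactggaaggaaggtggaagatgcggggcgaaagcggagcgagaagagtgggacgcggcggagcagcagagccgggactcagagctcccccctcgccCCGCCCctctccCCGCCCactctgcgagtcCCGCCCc
PTGES3: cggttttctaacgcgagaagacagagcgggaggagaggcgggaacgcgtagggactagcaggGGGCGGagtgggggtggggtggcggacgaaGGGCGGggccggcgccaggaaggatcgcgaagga
PTGS2: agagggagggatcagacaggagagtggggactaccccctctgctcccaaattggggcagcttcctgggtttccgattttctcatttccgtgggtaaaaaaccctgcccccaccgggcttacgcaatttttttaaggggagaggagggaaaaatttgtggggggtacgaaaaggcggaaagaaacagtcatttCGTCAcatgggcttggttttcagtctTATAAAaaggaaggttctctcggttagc
The PTGES2 stretch held 3 GC boxes and the PTGES3 stretch 2, and neither held the other motifs. Among 35116 promoters, 39.8% held a GC box in a window as long as that of PTGES2, and 21.7% in one as long as that of PTGES3. The PTGS2 stretch held 1 TATA box, 32 to 27 bases before the start, and 1 response element core, 58 to 54 bases before it. In windows of its length, 10.7% of the promoters held that TATA box and 20.9% that core. The STAT site TTCNNNGAA was in none of the 3 stretches, and in 3.59% to 6.50% of the promoters over windows of these lengths. These matches describe letters and not binding.

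The abundant members were the terminal synthases PTGES2 and PTGES3, and the cyclooxygenases were near 0 in every library. PTGES3 (ENSG00000110958, chromosome 12 from 56663341 to 56688408, GRCh38 positions) encodes p23, a co-chaperone of HSP90 that also has prostaglandin E synthase activity, and its level is uncertain where reads are shared with its pseudogene copies or with RN7SL809P, which it overlaps. It had 26.0 FPKM for vehicle, 63.3 with 50 ng/mL and 62.8 with 100 ng/mL. PTGES2 (ENSG00000148334, chromosome 9 from 128120693 to 128128418) encodes a membrane-associated prostaglandin E synthase. It had 39.6 FPKM for vehicle, 20.2 with 50 ng/mL and 20.0 with 100 ng/mL. Vehicle was the low library for PTGES3 and the high library for PTGES2, and the rhFGF19 libraries lay close together for both. In bulk RNA, fewer cells of a type and less RNA per cell cannot be told apart.

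In FPKM the order of these synthases differed between the libraries. The level of PTGES2 was 1.52 times that of PTGES3 in vehicle, 0.319 times with 50 ng/mL and 0.318 times with 100 ng/mL. When the vehicle ratio, itself uncorrected, was carried forward by fold changes with the GC trend removed, it became 1.20 with 50 ng/mL and 1.17 with 100 ng/mL. These values start from the order in vehicle, so they cannot show which synthase was the more abundant. Both genes stayed among the most abundant, at percentile 92.3 of all symbols for PTGES3 in vehicle and 97.1 with 50 ng/mL, and at 94.5 and 90.8 for PTGES2.

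**Figure D1:**
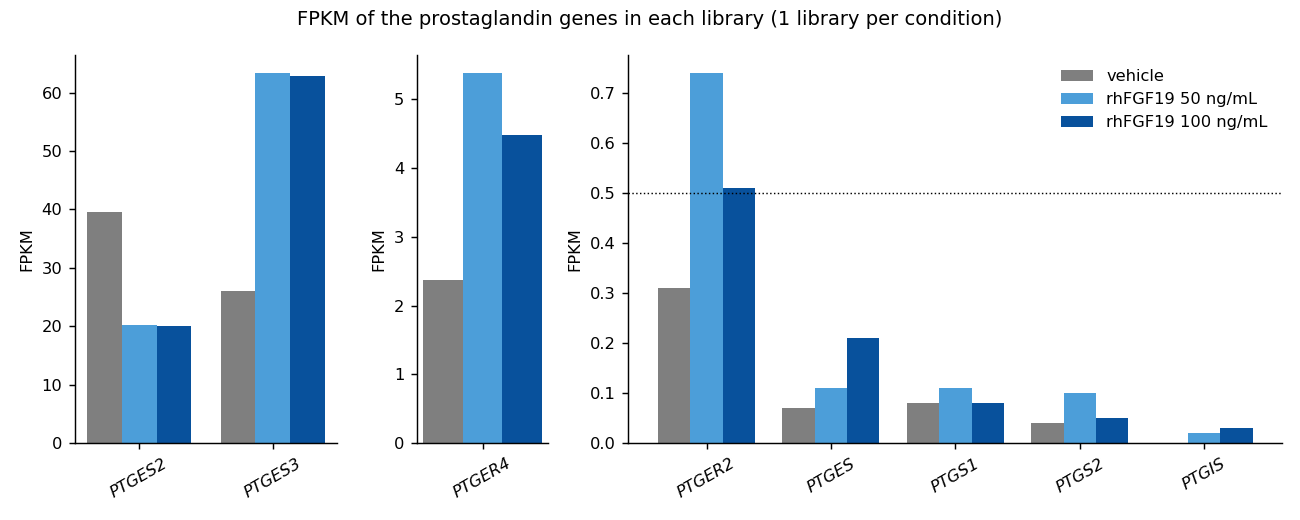
FPKM (vertical axes, from 0, a different scale in each panel) of the 8 measured genes in the vehicle, 50 ng/mL and 100 ng/mL rhFGF19 libraries, 1 bar per library with no error bars since there is 1 library per condition; the dotted line at 0.5 FPKM is the filter on the mean. PTGES3 stands at 26.0 FPKM for vehicle and at 63.3 and 62.8 in the rhFGF19 libraries (a direction that flips once the GC trend is taken out), PTGES2 stands at 39.6, 20.2 and 20.0, and PTGS1, PTGS2, PTGES and PTGIS stay at or below 0.21 FPKM.

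Against vehicle, PTGES3 was 2.43-fold higher with 50 ng/mL and 2.41-fold higher with 100 ng/mL, log2 fold changes of 1.28 and 1.27, and its direction flipped to -0.12 at both doses once the GC trend, the fitted course of fold change along GC content, was taken out. PTGES2 was 1.96-fold lower with 50 ng/mL and 1.98-fold lower with 100 ng/mL, just short of 2-fold, with log2 fold changes of -0.97 and -0.98. Its direction was the same under every setting run, from -1.31 to -0.43 with 50 ng/mL and from -1.33 to -0.46 with 100 ng/mL. The transcripts of PTGES3 had a median GC content of 42.4%, where the fitted trend over all symbols was 1.41 with 50 ng/mL, a little above the gene itself. Those of PTGES2 had 64.8%, where the trend was -0.50, so PTGES2 lay 0.47 below it. The central 95% of all symbols lay between -0.93 and 1.93 with 50 ng/mL and between -0.90 and 1.91 with 100 ng/mL, and PTGES2 was just outside the lower end at both doses, as FPKM gave it. The part of composition in these differences was not tested.

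Of EP2 and EP4, the cAMP-raising receptors among the members, EP4 had the higher FPKM. PTGER4 (ENSG00000171522, chromosome 5 from 40679915 to 40693735), which overlaps TTC33 on the other strand so that their reads may not be separated, had 2.37 FPKM for vehicle, 5.38 with 50 ng/mL and 4.48 with 100 ng/mL. It was lowest in vehicle, with log2 fold changes of 1.15 and 0.89, past 2-fold with 50 ng/mL and short of it with 100 ng/mL. PTGER4 stayed above vehicle under every setting run, between 0.40 and 1.51 with 50 ng/mL and between 0.13 and 1.23 with 100 ng/mL. Its place relative to genes of like composition depended on the transcript used. With the median of its 5 listed transcripts, a GC content of 60.7% over 560 bases, it lay 1.51 and 1.23 above the trend. With its longest transcript, 51.7% over 3848 bases, it lay 0.70 and 0.45 above it, a setting chosen after the values were seen.

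PTGER2 (ENSG00000125384, chromosome 14 from 52314305 to 52328598), the EP2 receptor gene, had 0.31 FPKM for vehicle, 0.74 with 50 ng/mL and 0.51 with 100 ng/mL. Its mean of 0.52 FPKM was just inside the filter, and only through the value with 50 ng/mL. The log2 fold change with 50 ng/mL was 1.03, just past 2-fold, and ranged from 0.081 to 1.301 over the settings run: 0.081 with the GC trend removed, 0.31 with the length trend removed, 0.35 with quantile normalization, 0.41 with a pseudocount of 1 and 0.83 with the median ratio set to 0. The log2 fold change with 100 ng/mL was 0.57, which flipped to -0.36 with the GC trend removed, to -0.13 with the length trend removed and to -0.087 with quantile normalization. In each library the FPKM of PTGER4 was above that of PTGER2, by 7.65 times in vehicle, 7.27 times with 50 ng/mL and 8.78 times with 100 ng/mL. These ratios were not corrected for base composition.

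PTGS1 (ENSG00000095303), the constitutive cyclooxygenase, had 0.08 FPKM for vehicle, 0.11 with 50 ng/mL and 0.08 with 100 ng/mL. PTGS2 (ENSG00000073756, chromosome 1 from 186671791 to 186680423), whose sequence before the start is given above, had 0.04, 0.10 and 0.05 FPKM in the same order. PTGES (ENSG00000148344), the inducible prostaglandin E synthase, had 0.07, 0.11 and 0.21 FPKM. PTGIS (ENSG00000124212), the prostacyclin synthase, was listed at 0 in vehicle and had 0.02 and 0.03 FPKM with rhFGF19. These 4 genes were below the filter, and their values, written to 2 decimals and without counts, could not show a difference between the libraries. The median of the 4 members that passed was 1.09 with 50 ng/mL and 0.73 with 100 ng/mL, against 0.62 at both doses for all symbols tested. The 4 include PTGER2, which passed the filter only through its value with 50 ng/mL. The members' medians with the GC trend removed were -0.022 and -0.24, against 0.0070 and 0.0055 for all symbols.

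Of the 4 members with a fold change, 3 (75.0%) were more than 2-fold higher with 50 ng/mL (PTGES3, PTGER4 and PTGER2) and 1 (25.0%) with 100 ng/mL (PTGES3), and none was more than 2-fold lower at either dose. PTGER2 passed the filter only through its value with 50 ng/mL, so its call at that dose is not independent of the filter. With a filter of 1 FPKM, 2 members were higher with 50 ng/mL. Among all symbols tested, 39.5% were more than 2-fold higher with 50 ng/mL and 38.6% with 100 ng/mL, so the members' share was above the background with 50 ng/mL and below it with 100 ng/mL, over 4 genes. The share more than 2-fold lower was 1.75% with 50 ng/mL and 1.47% with 100 ng/mL. At both doses 1 of the 4 members was higher and 0 were lower, against 36.3% and 0.636% of all symbols. Higher genes made up 95.8% of the called symbols with 50 ng/mL and 82.9% after the median log2 ratio to vehicle was set to 0. They made up 48.5% with the length trend removed, 48.3% with quantile normalization and 42.7% with the GC trend removed. At 100 ng/mL these shares were 96.3%, 85.9%, 49.1%, 48.3% and 42.6%. The median ratio was set over symbols of at least 1 FPKM in every library, so all symbols tested kept a median of 0.40 at both doses. Both comparisons share the vehicle library, and agreement between them is no independent support.

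**Figure D2:**
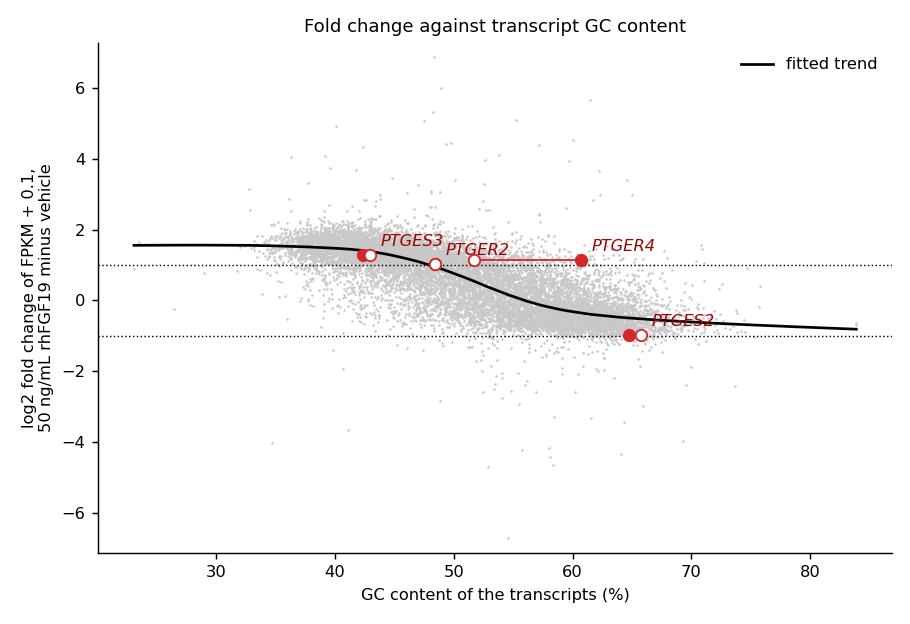
Log2 fold change of FPKM + 0.1 with 50 ng/mL rhFGF19 minus vehicle (vertical axis) against the GC content of the transcripts in percent (horizontal axis), with 1 grey point per symbol that passed the filter, the fitted trend as a black line and 2-fold as dotted lines. Filled red points use the median GC content of the listed transcripts and open points the longest transcript; PTGES3 and PTGER2 lie near the line, PTGES2 0.47 below it, and PTGER4 above it at both of its GC contents. The line was fitted on the median GC content. The distance of an open point from it is therefore not the value of the text for the longest transcript.

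Between the rhFGF19 libraries, none of the 4 members that passed differed by more than 2-fold, as against 0.845% of all symbols that were more than 2-fold higher with 100 ng/mL and 0.797% that were lower. The log2 difference of 100 minus 50 ng/mL was -0.012 for PTGES3, -0.015 for PTGES2, -0.26 for PTGER4 and -0.46 for PTGER2. All symbols tested had a central 95% range of -0.55 to 0.54 in this comparison, and the 4 members lay inside it. It is the only comparison that does not rest on the vehicle library, and its Spearman correlation with GC content across 12397 symbols was 0.069.

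**Figure D3:**
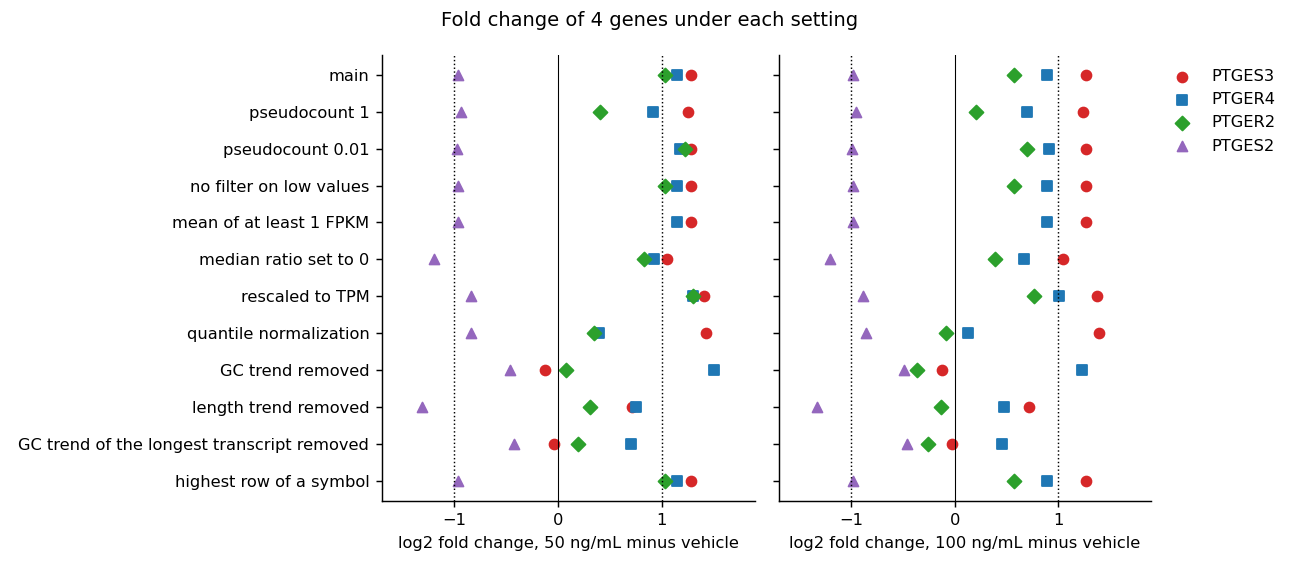
Log2 fold change against vehicle (horizontal axes) of PTGES3, PTGER4, PTGER2 and PTGES2 with 50 ng/mL (left) and 100 ng/mL (right) under each setting of scale, filter and normalization (vertical axis), 1 point per gene and setting (main is the setting of the text), with dotted lines at 2-fold. PTGES2 stays left of 0 and PTGER4 right of 0 throughout, and PTGES3 moves from 1.28 to -0.12 with 50 ng/mL when the GC trend is removed.

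The rest of the pathway was described through 7 lists of related genes, of which 72 of 107 genes passed the filter. Of these, 30 (41.7%) were more than 2-fold higher with 50 ng/mL and 32 (44.4%) with 100 ng/mL, near the 39.5% and 38.6% of all symbols, and 0 and 1 were more than 2-fold lower. At both doses 28 genes (38.9%) were higher, against 36.3% of all symbols, the background for each count at both doses that follows. The median log2 fold change of the 72 genes was 0.76 and 0.70. With the GC trend removed the medians were 0.12 and 0.094, and 6 and 5 genes were more than 2-fold higher.

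Of 12 other genes of prostanoid synthesis and breakdown, 6 passed the filter, and their medians of -0.18 and -0.21 were below those of all symbols. None was more than 2-fold higher or lower at both doses. PTGR1, which inactivates prostaglandins by reduction, came closest, with 12.8 FPKM for vehicle, 25.6 with 50 ng/mL and 26.5 with 100 ng/mL, log2 fold changes of 0.99 and 1.04 that turned to -0.15 and -0.085 with the GC trend removed. AKR1B1, an aldose reductase that can make prostaglandin F2α, was the most abundant at 169.9, 94.3 and 98.0 FPKM, with -0.85 and -0.79, and -0.90 and -0.85 with the GC trend removed. AKR1C3 had 2.15, 3.02 and 2.83 FPKM, with 0.47 and 0.38, which turned to -0.99 and -1.06 with the GC trend removed. It was the only gene of this list past 2-fold under that setting, and only with 100 ng/mL. PTGR1, AKR1B1 and AKR1C3 were named after their values were seen.

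Of 10 other receptors and transporters, 5 passed, and 2 were more than 2-fold higher at both doses. ABCC4, an exporter of prostaglandins, had 0.47, 1.58 and 1.78 FPKM, log2 fold changes of 1.56 and 1.72, and 0.19 and 0.37 with the GC trend removed. PTGFRN, a partner protein of the prostaglandin F2α receptor, had 2.75, 6.65 and 6.32 FPKM, with 1.24 and 1.17, which became 0.40 and 0.34 with the GC trend removed and 0.39 and 0.33 with the length trend removed. The other 3 were receptors lower than in vehicle at both doses, as FPKM gave them. With the GC trend removed, PTGIR had 0.12 with 50 ng/mL and -0.11 with 100 ng/mL, and TBXA2R had -0.13 and -0.39. PTGIR and TBXA2R were named after their values were seen. The third receptor, PTGER1, the gene of the EP1 receptor, was past 2-fold with 100 ng/mL. PTGER1, chosen after its values were seen, had 3.49, 1.94 and 1.65 FPKM, with -0.82 and -1.04, and -0.15 and -0.35 after the GC trend was removed, at a GC content of 73.3%. PTGER1 and PTGER4, receptors for the same prostaglandin, thus lay on opposite sides of vehicle.

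The genes that supply arachidonate were a mixed list. Of 24 phospholipases A2 and genes of arachidonate supply, 17 passed, and 8 were more than 2-fold higher at both doses. ANXA1, a protein known to inhibit phospholipase A2, had 4.92, 18.8 and 19.1 FPKM, with 1.91 and 1.94. ELOVL5, a fatty acid elongase, had 5.54, 15.4 and 15.9 FPKM, with 1.46 and 1.504. FADS1, the desaturase that forms arachidonic acid, had 7.38, 16.1 and 16.5 FPKM, with 1.11 and 1.15. ACSL3, an acyl-CoA synthetase, had 2.77, 8.93 and 7.95 FPKM, with 1.65 and 1.49. With the GC trend removed, FADS1 had 1.13 and 1.17, but 0.46 and 0.52 with the GC content of its longest transcript, and it was also under 2-fold with the length trend removed, quantile normalization and the median ratio set to 0. Under the same GC trend as first fitted, ANXA1 had 0.43 and 0.46, ELOVL5 had 0.031 and 0.090, and ACSL3 had 0.14 and -0.017.

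Of 18 lipoxygenases, leukotriene synthases and receptors, 6 passed, and 1 was more than 2-fold higher with 50 ng/mL, 3 with 100 ng/mL and 1 at both doses. The last was LTA4H, which forms leukotriene B4, at 1.34, 3.82 and 4.24 FPKM, with log2 fold changes of 1.44 and 1.59, and 0.056 and 0.22 with the GC trend removed. The other two with 100 ng/mL, named after their values were seen, were the leukotriene B4 receptor genes LTB4R and LTB4R2, neighbours whose reads may be shared. LTB4R had 0.88, 1.74 and 2.13 FPKM, with 0.91 and 1.19, and LTB4R2 had 0.69, 1.34 and 1.58 FPKM, with 0.87 and 1.09. Their values with the GC trend removed were 1.36 and 1.63 for LTB4R and 1.39 and 1.61 for LTB4R2, whereas LTB4R2 turned to -0.037 with 50 ng/mL under quantile normalization. With the GC trend removed, 2 genes of this list were more than 2-fold higher and 2 more than 2-fold lower at each dose. The lower genes, also named after their values were seen, were MGST2, with -1.64 and -1.10, and MGST3, with -1.53 and -1.47. ALOX5, the enzyme that opens the leukotriene branch, was listed at 0 in every library.

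On the cAMP route of EP2 and EP4, 18 of 22 genes passed, 7 (38.9%) were more than 2-fold higher at each dose and 6 (33.3%) at both, shares near those of all symbols. The regulatory subunit PRKAR1A of protein kinase A had 12.0, 28.96 and 29.01 FPKM, with 1.26 and 1.27. Another, PRKAR2A, had 1.93, 7.12 and 6.79 FPKM, with 1.83 and 1.76, and the catalytic subunit PRKACB had 0.67, 2.47 and 2.45 FPKM, with 1.74 and 1.73. ATF1, a transcription factor of the CREB family, had 1.05, 3.89 and 4.18 FPKM, with 1.79 and 1.896. With the GC trend removed, ATF1 had 1.05 and 1.17, PRKAR2A had 0.93 and 0.88, PRKACB had 0.21 and 0.20, and PRKAR1A had 0.16 and 0.18. With the GC content of the longest transcript, ATF1 had 0.28 and 0.39.

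Proteins that bind AU-rich mRNAs, which include PTGS2 mRNA among their known targets, had list medians of 1.16 and 1.09, and 0.56 and 0.61 once the GC trend was taken out. Of 11 listed, 10 passed and 5 were more than 2-fold higher at both doses. RBM3, a cold-inducible RNA-binding protein, had 23.3, 53.8 and 52.8 FPKM, with 1.20 and 1.18. ZFP36L1, which promotes decay of such mRNAs, had 8.17, 19.4 and 19.1 FPKM, with 1.24 and 1.21. TIAL1 had 1.79, 5.99 and 5.81 FPKM, with 1.69 and 1.64, and AUH had 0.45, 1.68 and 2.03 FPKM, with 1.69 and 1.95. With the GC trend removed the values were 1.03 and 1.01 for RBM3, 0.99 and 0.97 for ZFP36L1, 0.43 and 0.71 for AUH, and 0.21 and 0.18 for TIAL1. With the GC content of the longest transcript, RBM3 had 0.045 and 0.0375, and ZFP36L1 had 0.53 and 0.52.

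The HSP90 machinery, in which PTGES3 works as p23, was measured throughout, with 10 of 10 genes past the filter and 6 (60.0%) more than 2-fold higher at both doses, against 36.3% of all symbols. HSP90AB1 had 125.1, 258.0 and 255.0 FPKM, with log2 fold changes of 1.04 and 1.03, and HSP90AA1 had 10.6, 44.4 and 42.7 FPKM, with 2.06 and 2.002. The cyclophilin PPID had 2.73, 6.10 and 6.81 FPKM, with 1.13 and 1.29, and FKBP5 had 0.88, 2.33 and 2.67 FPKM, with 1.31 and 1.499. The list medians of 1.09 and 1.16 became -0.22 and -0.072 with the GC trend removed, and 0 of the 10 genes were then more than 2-fold higher. Under that setting HSP90AA1 had 0.72 and 0.68, HSP90AB1 -0.024 and -0.023, PPID -0.36 and -0.20, and FKBP5 -0.043 and 0.16. The median transcript GC content of this list was 45.6%, close to the 42.4% of PTGES3.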

How the data were processed

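The authors isolated poly(A) RNA, sequenced paired-end libraries on an Illumina HiSeq and mapped the reads with HISAT2. The submitters' processing notes name HISAT2 2.0, StringTie 1.3.0 and Bowtie 0.12.2 and the builds hg19 and mm8, with no role or order. The authors deposited 1 FPKM value per gene and library for 26108 genes, to 2 decimals, and the strand setting is not given in the sources used here. The positions overlapped GRCh38 for 99.9% of the 25531 identifiers found in GENCODE v29.

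Rows that share a symbol were summed. Single libraries were compared by log2(FPKM + 0.1), over symbols whose mean reached 0.5 FPKM, and 2-fold, the study's criterion, was the threshold. No test was possible with 1 library per group. Trends on transcript GC content and length (medians over the listed transcripts, found for 99.8% of the symbols) were fitted by lowess (span 0.3) and subtracted. The computation was tested on simulated data. Alternatives (12, and 1 added after seeing the data) changed the pseudocount, filter, scaling, threshold or trend. All 10 members were named, and up to 4 genes of each other list that passed 2-fold in the same direction at both doses, those of highest mean FPKM. Genes nearest in pattern to PTGS2 and PTGES are not given, since both lie below the filter. The members and lists were chosen with earlier results of these data known. RefSeq promoters were matched by symbol. Python 3.11.15, NumPy 2.4.6, pandas 2.3.3 and statsmodels 0.14.6 were used.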

Additional observations from a re-analysis of the deposited data

How the results depend on the processing

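With the settings used in the report, 3 members were more than 2-fold higher at 50 ng/mL and 1 at 100 ng/mL, 0 were lower, and 30 and 32 genes of the other lists were higher, with 0 and 1 lower. Settings are compared by these counts, and the cause of a difference was not tested unless the construction shows it. A 1.5-fold threshold gave 1 lower member at 50 ng/mL, 2 higher and 1 lower at 100 ng/mL, and 7 and 6 lower list genes. A 3-fold threshold gave 0 and 0 higher members, 10 and 11 higher list genes and 0 lower at 100 ng/mL. A pseudocount of 1 gave 1 higher member at 50 ng/mL, 17 and 18 higher list genes and 0 lower at 100 ng/mL. Rescaling to TPM gave 2 higher members and 0 lower list genes at 100 ng/mL. With the median ratio set to 0 there were 1 higher and 1 lower member with 50 ng/mL and 1 lower with 100 ng/mL, beside 4 and 3 lower list genes. Quantile normalization gave 1 higher member at 50 ng/mL, 8 and 9 higher and 4 and 3 lower list genes. With the length trend removed, 0 members were higher and 1 was lower at each dose, and the lists had 12 and 11 higher and 6 and 7 lower genes. With the GC trend removed, 1 member was higher at each dose, which was PTGER4 and no longer PTGES3. The lists then had 6 and 5 higher and 2 and 3 lower genes. With the GC content of the longest transcript, a setting chosen after seeing the data, 0 and 0 members were higher, and the lists had 2 and 1 higher and 3 and 2 lower genes. The trend removals and quantile normalization centre the fold changes, so their lower counts follow in part from construction: the median over all symbols at 50 ng/mL was 0.62 as reported, 0.40 with the median ratio set to 0, 0.77 with TPM, 0.10 after quantile normalization, 0.059 without the length trend and 0.0070 without the GC trend. The pseudocount of 0.01, the filters of none and of 1 FPKM, and the use of the highest row of a symbol kept every count within 1.5 times.

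Among the members and the named genes followed over the settings, log2 fold changes that turned direction did so under centring settings. With the GC trend removed, PTGES3 had -0.125 and -0.119 at 50 and 100 ng/mL, PPID -0.364 and -0.196, PTGR1 -0.15 and -0.0853, HSP90AB1 -0.0243 and -0.0233, and PTGER2 -0.364 and ACSL3 -0.0169 at 100 ng/mL, and FKBP5 -0.0432 at 50 ng/mL. PTGIR, lower than in vehicle as FPKM gave it, turned to 0.116 at 50 ng/mL under that setting. AKR1C3, higher than in vehicle as FPKM gave it, turned to -0.985 and -1.06. List genes not named above also turned under that setting, such as HNRNPD, from 0.88 at both doses to -0.50 and -0.49. With the longest transcript, PTGES3 had -0.0381 and -0.0297, PPID -0.207 and -0.031, PTGR1 -0.336 and -0.27, PRKAR1A -0.183 and -0.168, PTGER2 -0.253 at 100 ng/mL and FKBP5 -0.0674 at 50 ng/mL. PTGER2 at 100 ng/mL also had -0.0869 with quantile normalization and -0.13 with the length trend removed, and LTB4R2 with 50 ng/mL had -0.0373 with quantile normalization. No paired analysis was possible because each condition has 1 library and the labels give no replicate numbers. The depth of the libraries is unknown, so no difference among the 4 members below 0.5 FPKM was detectable here.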

Other observations

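Relatives of PTGES3 were read at other levels. PTGES3P1, a pseudogene of PTGES3 on chromosome 1, had 5.26 FPKM for vehicle, 5.75 with 50 ng/mL and 5.11 with 100 ng/mL. Reads of PTGES3 and its pseudogene copies can be shared in the counting, so the level of PTGES3 is uncertain to that extent. PTGES3L-AARSD1, a readthrough locus of PTGES3L and AARSD1, whose reads its partner genes may share, had 13.2 FPKM for vehicle, 4.01 with 50 ng/mL and 3.45 with 100 ng/mL. As FPKM gave them, these values went in the direction of PTGES2 and against that of PTGES3. The direction of PTGES3 flipped once the GC trend was taken out, so this opposition holds for FPKM as listed. PTGES3L itself had 0.67, 0.66 and 0.95 FPKM.

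The pattern of a single gene over 3 libraries was shared by many others. Among symbols whose mean reached 1 FPKM, 1103 lay within a distance of 0.2 of PTGES3 in the pair of log2 fold changes against vehicle, which was 10.5% of those compared. For PTGER4 it was 474, for PTGES2 227 and for PTGER2 56.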
